A study of Mus musculus with 4 samples.

Results

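The CXC chemokine genes described here are Cxcl1, Cxcl2, Cxcl3, Cxcl9, Cxcl10, Cxcl12, Cxcl14, Cxcl16 and Pf4, chosen by name as the genes whose symbol in the count tables equals one of these. All 9 were found, of 55367 gene rows in each table. Polyadenylated RNA was sequenced in 4 libraries of mouse cells taken from B16-F10 melanomas, which grow from a cell line that the study injected under the skin. The cells were sorted as CD45.2+CD8+, that is, as blood-derived cells that carry the CD8 coreceptor. The titles name 2 libraries WT and 2 libraries KO, numbered 1 and 2. The series concerns mice with loxP-flanked Satb1 (Satb1 F/F) deleted by ThPOK-cre, which acts in the CD4 lineage, or by E8I-cre, which acts in the CD8 lineage. The labels do not say which of these drivers the libraries labeled KO carried, nor the age of the animals, which the study's methods describe in general as young adults of mixed sexes with C57BL/6 as wild type, nor whether a library came from 1 animal or from several, so the p-values measure the spread between these libraries only.

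CXC chemokines are small secreted proteins, named for a pair of cysteines with another residue between them, that guide leukocytes through G protein-coupled receptors. Cxcl1, Cxcl2 and Cxcl3 draw neutrophils through Cxcr2 and are induced by NF-kB, Cxcl9 and Cxcl10 are induced by interferon gamma and draw T and NK cells through Cxcr3, and Cxcl16 is made as a membrane protein and binds Cxcr6. Pf4 (platelet factor 4) is stored in platelet granules and is also made by macrophages, and Cxcl12, the ligand of Cxcr4 and Ackr3, and Cxcl14 are made mainly by stromal and epithelial cells.

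The promoters are shown because Cxcl1, Cxcl2 and Cxcl3, neighbors on chromosome 5, share an element there, so that their profiles over the libraries can be set beside it. Of the 9 genes, 8 had an entry among RefSeq promoters of GRCm38.p6. The windows are the 250 bases before the RefSeq start, written 5′ to 3′ on the strand of the gene, at chr5:90890995-90891244 (+), chr5:90903649-90903898 (+), chr5:90785851-90786100 (+) and chr5:92348890-92349139 (-). The last 4 bases of the Cxcl1 window and the last 28 of the Cxcl2 window lie in an exon of GENCODE M21, whose starts differ from those of RefSeq. Capitals mark matches to the 10-base kB consensus, the site of NF-kB, to GAAANNGAAA, an interferon response element, and to TATAAA.
Cxcl1: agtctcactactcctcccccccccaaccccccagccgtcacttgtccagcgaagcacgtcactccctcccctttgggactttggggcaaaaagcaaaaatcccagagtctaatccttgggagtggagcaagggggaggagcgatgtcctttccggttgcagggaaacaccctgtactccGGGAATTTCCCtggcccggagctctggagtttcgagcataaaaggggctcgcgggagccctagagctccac
Cxcl2: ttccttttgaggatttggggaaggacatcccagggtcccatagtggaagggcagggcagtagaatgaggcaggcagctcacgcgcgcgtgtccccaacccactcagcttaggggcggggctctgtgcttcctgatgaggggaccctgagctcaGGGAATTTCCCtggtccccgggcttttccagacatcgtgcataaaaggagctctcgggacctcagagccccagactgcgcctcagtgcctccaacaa
Cxcl3: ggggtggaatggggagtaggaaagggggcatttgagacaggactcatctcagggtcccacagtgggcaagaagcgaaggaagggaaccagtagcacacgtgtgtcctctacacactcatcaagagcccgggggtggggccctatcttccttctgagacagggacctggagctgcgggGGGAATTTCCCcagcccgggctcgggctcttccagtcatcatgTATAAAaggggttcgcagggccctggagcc
Cxcl10: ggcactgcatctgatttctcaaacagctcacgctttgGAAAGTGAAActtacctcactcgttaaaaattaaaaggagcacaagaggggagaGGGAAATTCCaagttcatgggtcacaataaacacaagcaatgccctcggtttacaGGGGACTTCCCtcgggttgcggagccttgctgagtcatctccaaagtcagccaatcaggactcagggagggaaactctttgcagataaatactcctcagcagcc

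Cxcl1, Cxcl2 and Cxcl3 held the same 11-base element, GGGAATTTCCC, with its first base 71, 97 and 73 bases before the RefSeq start. It contains a pair of overlapping kB matches, one on each strand. Counting the base before the start as -1, Cxcl10 held a kB match from -159, a further pair of overlapping matches from -104, and the element GAAAGTGAAA from -213. A kB match was present in 4 of the 8 member promoters, against 7.25% of all 32851 promoter windows of that length, counting both strands. GAAANNGAAA was present in 2 of 8 (Cxcl10 and Cxcl14) against 2.98%, TATAAA in 2 of 8 (Cxcl3 and Cxcl9) against 12.4%, and TTCNNNGAA, also searched, in 1 of 8 (Cxcl14) against 7.02%. These matches describe letters in the window and not binding.

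The counts on genes ranged from 4017875 to 5382915 per library, so that a count of 3, taken as the floor of detection, corresponded to 0.557 to 0.747 CPM (the count of a gene scaled to the same total of gene counts in every library). Every pair of libraries differed by more than sampling noise, with a chi-square of at least 27.2 for each degree of freedom. Satb1, the gene named as deleted, went against the labels, with 131 and 55 counts in KO 1 and KO 2 but 7 and 5 in WT 1 and WT 2, so every direction below is that of the libraries as labeled. Markers also went against the sort: 12 macrophage or monocyte genes summed to 29632 and 40609 CPM under the label WT and to 23472 and 30676 under KO, whereas 10 T cell genes that include Cd3e and Cd8a, of which 9 passed the test below, summed to 75.7 and 121 against 2520 and 1319. Xist had 435 and 216 counts against 0 and 3, and the Y-linked gene Ddx3y 0 and 0 against 188 and 81, so that sex and label cannot be told apart. In bulk RNA, fewer cells of a type and less RNA per cell cannot be told apart either. In counts, the T cell list had 304 and 516 under WT against 11287 and 7099 under KO. Its part in the Satb1 counts was not tested.

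Together the 9 genes took 0.151% of the gene counts in WT 1 and 0.162% in WT 2, and 0.166% in KO 1 and 0.220% in KO 2. The exact Clopper-Pearson 95% interval of the highest, in KO 2, ran from 0.217% to 0.224%. Intervals and floors cover counting error only, since no molecular identifiers are described for these reads. Per kilobase of exon, where levels of different genes can be set side by side, Pf4 and Cxcl2 led with means over the 4 libraries of 355 and 346 CPM per kilobase. Cxcl16 followed at 127, Cxcl10 at 87.6 and Cxcl9 at 50.4, and then Cxcl1 at 8.23, Cxcl3 at 4.56, Cxcl14 at 3.17 and Cxcl12 at 1.01. The ranges of Pf4 (102 to 527) and Cxcl2 (164 to 637) overlapped, as did those of Cxcl16 (63.8 to 210) and Cxcl10 (60.8 to 115), and of Cxcl10 and Cxcl9 (10.9 to 102). The range of Pf4 also reached into those of Cxcl16, Cxcl10 and Cxcl9, and Cxcl2 lay below Cxcl16 in WT 1 (164 against 210), so the order of the means did not hold in every library. The leading gene was Pf4 in both libraries labeled WT and Cxcl2 in KO 1. In KO 2 it was Cxcl2 per kilobase of all exons (637 against 527 for Pf4) and Pf4 per kilobase of the longest transcript (646 against 637).

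Of all counts on the 9 genes, Cxcl2 held 22.3% in WT 1 and 27.6% in WT 2, but 45.6% in KO 1 (exact 95% interval 44.5% to 46.8%) and 59.7% in KO 2. Cxcl16 held 41.8% and 26.8% against 11.6% and 12.6%. For both genes the libraries of the groups did not overlap in these shares. Shares of the same total are tied together, so that a larger share of Cxcl2 leaves less for Cxcl16. They are also not separate from the levels in CPM given below. Cxcl9 held 3.96% and 12.7% against 18.6% and 1.49%, and so had its highest and its lowest share within the libraries labeled KO.

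**Figure D1:**
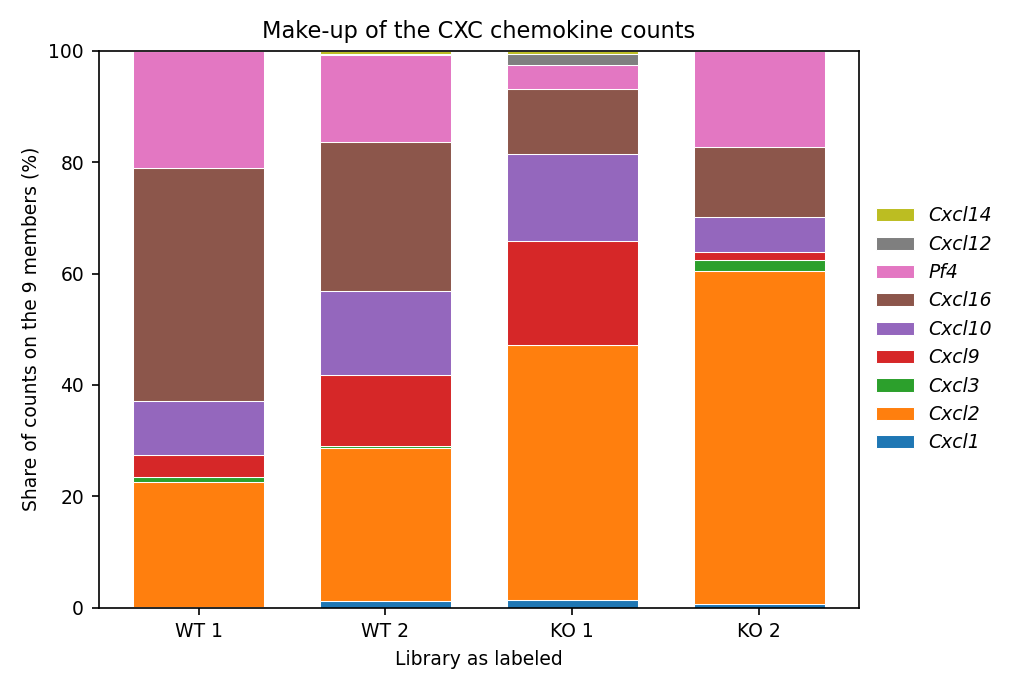
Stacked bars of the share of counts on the 9 CXC chemokine genes (y axis, percent) that each gene held in each of the 4 libraries (x axis). Cxcl2 takes 22.3% and 27.6% of the WT bars and 45.6% and 59.7% of the KO bars, Cxcl16 is narrower in the latter, and Cxcl9 is wide in KO 1 (18.6%) and thin in KO 2 (1.49%).

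Of the 9 genes, Cxcl2 lay higher and Cxcl16 lower in both libraries labeled KO, and the other 7 overlapped between the labels. The groups did not overlap in CPM for 35.9% of all genes tested in the higher and 12.6% in the lower direction, against 1 of the 9 genes in each, a share no larger than that background. Counts were tested in edgeR by quasi-likelihood, with p-values adjusted over all 11837 genes tested and a threshold of 0.05. That test called 0.549% of all genes higher under KO and 0.0253% lower. All 9 chemokine genes passed the filter on low counts, and 0 were called in either direction by edgeR, by DESeq2 (2.96% of all genes higher, 0.558% lower) or by the likelihood ratio test (4.02% higher, 0.676% lower). At an unadjusted p under 0.05 there were 0 higher and 1 lower, Cxcl16, against 9.44% and 4.23% of all genes tested. Their fitted log2 fold changes, 5 above and 4 below 0, ran from -1.52 to 3.16 with a median of 0.01, beside a median of 0.05 over all genes tested.

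**Figure D2:**
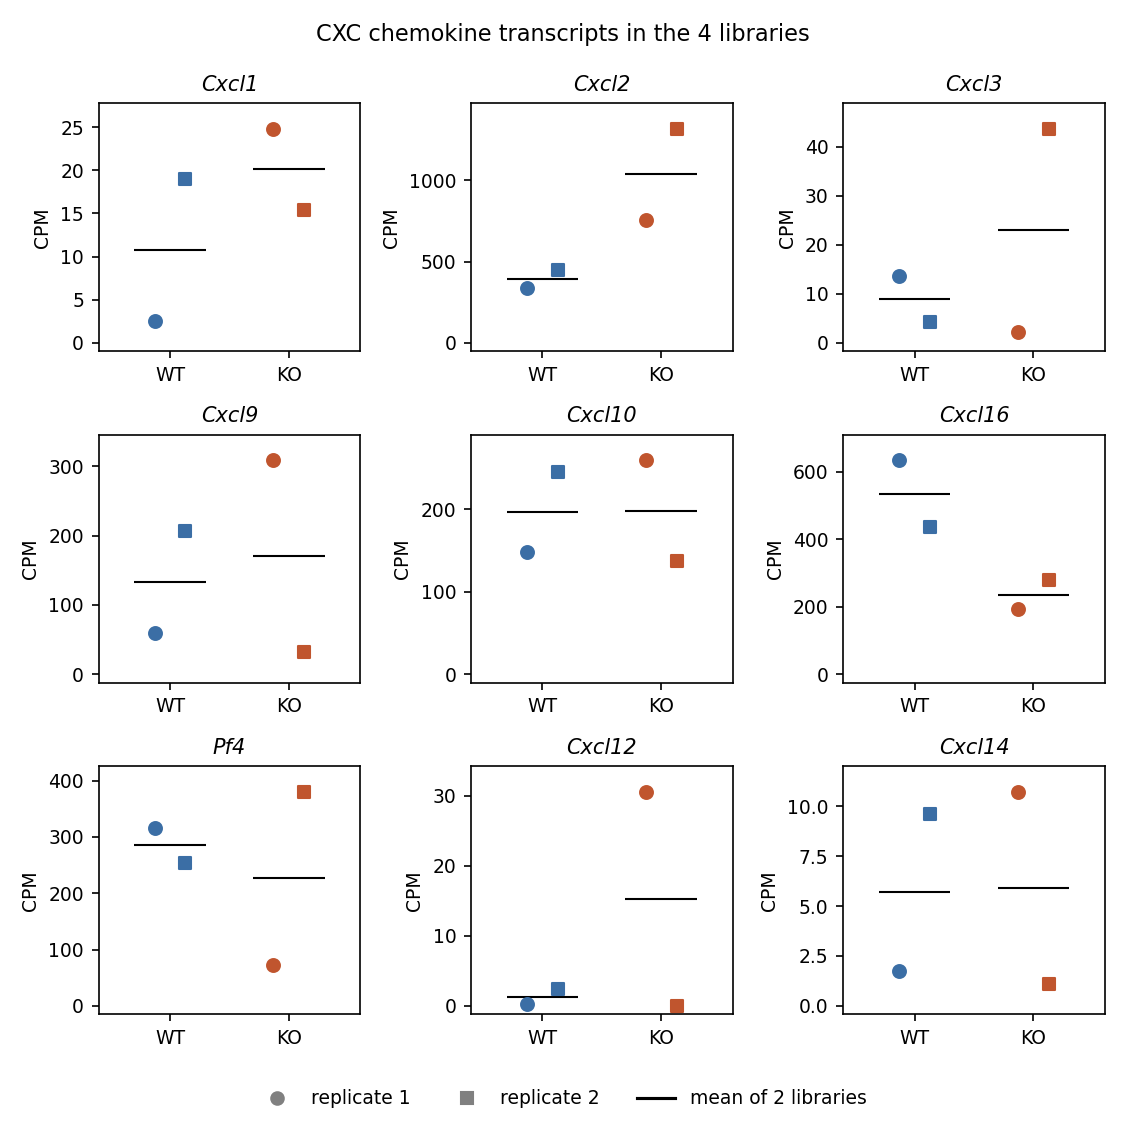
CPM (y axis, linear, own scale for each gene) of the 9 genes in the libraries labeled WT and KO (x axis), with circles for replicate 1, squares for replicate 2 and lines for the mean of 2 libraries. Only Cxcl2 (757 and 1316 above 338 and 448 CPM) and Cxcl16 (193 and 278 below 633 and 436 CPM) separate the groups.

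Among the ligands of Cxcr2, Cxcl2 (ENSMUSG00000058427.10, chromosome 5, 90903871 to 90905938, plus strand, GRCm38) was the most abundant, with 338 and 448 CPM under WT and 757 and 1316 under KO. Both libraries labeled KO lay above both labeled WT, with means of 1037 ± 396 against 393 ± 77.6 CPM (SD, n = 2 each), a 2.64-fold ratio. The fitted log2 fold change of 1.09 with a standard error (SE) of 0.52 did not pass the threshold (edgeR adjusted p = 0.389). It was 0.51 without KO 2 and 1.48 without KO 1. Every fit that leaves out a library has 1 library under that label, which is assumed to vary like the pair under the other, so that its p-value rests on the spread of that pair alone. Per 100 counts on the macrophage or monocyte list, Cxcl2 had 1.14 and 1.10 counts against 3.22 and 4.29, so the groups were also apart on that scale. Per 100 counts on the list without Lyz2, Cxcl2 had 1.52 and 1.65 against 9.08 and 6.67. That list itself summed to 22322 and 27110 CPM under WT against 8337 and 19735 under KO. A gene with higher CPM in both libraries labeled KO was therefore bound to separate there. The share of all genes apart on these scales was not computed.

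Cxcl1 (ENSMUSG00000029380.11, chromosome 5, 90891241 to 90893115) had 2.49 and 19.0 CPM against 24.8 and 15.4, and the groups overlapped because WT 2 exceeded KO 2. Per 100 counts on the macrophage or monocyte list they did not, with 0.00840 and 0.0468 counts against 0.106 and 0.0503. WT 2 and KO 2 had 81 and 83 counts of Cxcl1, too close to be told apart. They changed order on that scale because the list summed to 40609 CPM in WT 2 and 30676 in KO 2. The fold change of Cxcl1, 0.61 on the log2 scale (SE 0.78, edgeR adjusted p = 0.763), was -0.24 without WT 1 and 2.50 without WT 2. Cxcl3 (ENSMUSG00000029379.10, chromosome 5, 90786103 to 90789600) had 13.7 and 4.22 CPM against 2.23 and 43.7. It was thus highest in KO 2 and lowest in KO 1, where it had 235 and 10 counts, and its log2 fold change of 1.04 (SE 1.10, edgeR adjusted p = 0.712) was -2.47 without KO 2. Cxcl3 shared 4.29% of its 50-base words with other genes, Cxcl2 among them, and Cxcl2 shared 5.84% with Cxcl3, so that reads from those stretches could not be placed on either with certainty.

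Most neutrophil markers were scarce beside these ligands. S100a9 and Ly6g, which neutrophils express strongly, had at most 1 and 8 counts in any library, and 1 of 5 neutrophil markers, Csf3r, had enough counts to be tested. The list summed to 128 and 110 CPM under WT against 55.4 and 97.9 under KO, nearly all of it Csf3r, the G-CSF receptor gene (125 and 108 against 54.0 and 94.2).

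Of the ligands of Cxcr3, Cxcl10 (ENSMUSG00000034855.13, chromosome 5, 92346638 to 92348889, minus strand) had 148 and 245 CPM under WT and 259 and 137 under KO. The means were 197 ± 68.5 and 198 ± 86.6 CPM (SD, n = 2 each). Cxcl9 (ENSMUSG00000029417.9, chromosome 5, 92321347 to 92328079, minus strand) had 60.0 and 207 CPM against 308 and 32.9. WT 2 and KO 1 were the high libraries for both genes, and WT 1 and KO 2 the low ones, so that each group held a high and a low library. The log2 fold change was -0.32 (SE 0.47) for Cxcl10 and 0.01 (SE 0.85) for Cxcl9, with edgeR adjusted p-values of 0.799 and 0.997. The value of Cxcl9 was -2.24 without KO 1, 0.82 without KO 2, -0.66 without WT 1 and 0.94 without WT 2. That of Cxcl10 was -0.77 without KO 1, -0.63 without WT 1, -0.09 without WT 2 and -0.02 without KO 2. Art3, on the other strand, overlaps 5.91% of the exonic bases of Cxcl10, and whether strand was used in counting is not given.

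Within the libraries labeled KO, Cxcl9 differed 9.38-fold and Cxcl10 1.89-fold between KO 1 and KO 2. Cxcl9 was the larger of these differences in the libraries labeled WT as well, where it was 3.44-fold and that of Cxcl10 1.65-fold. Irf1, another interferon target, had 312 and 318 CPM under WT against 298 and 367 under KO.

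Cxcl16 (ENSMUSG00000018920.11, chromosome 11, 70453983 to 70459984, minus strand) had 633 and 436 CPM under WT and 193 and 278 under KO. Both libraries labeled KO lay below both labeled WT, with means of 235 ± 60.6 against 534 ± 139 CPM (SD, n = 2 each), a 2.27-fold ratio of WT to KO. Its log2 fold change of -1.52 (SE 0.51) had the smallest p of the 9 genes, 0.0146 unadjusted, but did not pass once adjusted over all genes (edgeR adjusted p = 0.244). With KO 1 as the lone KO library it was -1.93 (edgeR adjusted p = 0.0220, spread from the WT pair), and the adjusted p over all alternatives ran from 0.0220 to 0.9999. Of the 12 macrophage or monocyte genes, 0 were called by edgeR in either direction. In CPM, 6 lay lower in both libraries labeled KO and 1 higher, against 12.6% and 35.9% of all genes tested, and 4 were lower at an unadjusted p under 0.05, against 4.23%. The fitted values of Cd14, Mrc1 and Lyz2 were above 0. C1qa, a complement component of macrophages, had 3100 and 4319 CPM against 719 and 1977. The sum of the 12 overlapped between the groups, but that of the other 11 without Lyz2, a lysozyme gene with 7310 to 15135 CPM, was 22322 and 27110 CPM against 8337 and 19735 and did not. Per 100 counts on the whole list Cxcl16 had 2.14 and 1.07 counts against 0.821 and 0.907, with no overlap, and per 100 counts on the list without Lyz2 it had 2.84 and 1.61 against 2.31 and 1.41, with overlap. The reduced list was chosen after its values were seen, and its part in the level of Cxcl16 was not tested. Zmynd15 on the other strand overlaps 18.3% of the exonic bases of Cxcl16, so that its counts depend on how overlaps were counted.

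Pf4 (ENSMUSG00000029373.7, chromosome 5, 90772435 to 90773383) had 316 and 253 CPM under WT and 73.4 and 380 under KO. KO 1 held the lowest and KO 2 the highest level of the 4 libraries, a 5.17-fold difference within the label. The log2 fold change of -0.63 (SE 0.71, edgeR adjusted p = 0.731) was -2.41 without KO 2 (edgeR adjusted p = 0.00763, spread from the WT pair), a fit that sets KO 1 with the lowest level alone against WT, and 0.13 without KO 1. Platelet markers were near absent: 6 of them, including the glycoprotein genes Gp1ba, Gp6 and Gp9, had 3 and 1 counts in all under WT and 13 and 7 under KO, with Gp6 and Gp9 at 0 throughout. Ppbp, another chemokine of platelets, had 12 and 3 counts against 3 and 89 and so was also highest in KO 2.

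Cxcl12 (ENSMUSG00000061353.11, chromosome 6, 117168535 to 117181367) was seen in 1 library above a low level. It had 1 count in WT 1 and 10 in WT 2, 137 counts or 30.6 CPM in KO 1, and 0 counts in KO 2, where the floor of 3 counts corresponds to 0.557 CPM. The log2 fold change of 3.16 (SE 1.71, edgeR adjusted p = 0.448) thus rested on KO 1. Without KO 2, which had 0 counts, it was 4.11 (edgeR adjusted p = 0.0145), a fit that sets KO 1 alone against WT with the spread of the WT pair. It was 5.23 without WT 2 (edgeR adjusted p = 0.0409, spread from the KO pair) and 2.28 without WT 1. The 7 fibroblast markers, among them Col1a1 and Dcn, summed to 1486 CPM in KO 1, 182 in KO 2, and 7.72 and 3.05 in the libraries labeled WT. Cxcl12 had 3.23 and 76.9 counts per 100 on that list under WT, where the list itself had 31 and 13, against 2.06 and 0 under KO. The value of WT 1 is 1 count of Cxcl12, under the floor of 3 counts, so that no direction can be read on this scale.

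Cxcl14 (ENSMUSG00000021508.11, chromosome 13, 56288643 to 56296551, minus strand) had 7 and 41 counts under WT and 48 and 6 under KO. It was high in WT 2 and KO 1 and low in WT 1 and KO 2, the order seen for Cxcl9 but at far fewer counts. Its log2 fold change was -0.28 (SE 1.07, edgeR adjusted p = 0.930), and was -2.54 without KO 1, 1.18 without WT 2 and 0.52 without KO 2.

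Several members were spread widely within a label. Between KO 1 and KO 2, the gap in log2(CPM + 0.5) was 5.96 for Cxcl12, 4.01 for Cxcl3, 3.21 for Cxcl9, 2.80 for Cxcl14 and 2.36 for Pf4, where the median gene tested had 0.69. The gap of Cxcl3 was larger than that of 99.8% of genes tested, that of Cxcl9 than 99.2%, that of Cxcl14 than 98.4% and that of Pf4 than 96.4%. For Cxcl16, Cxcl1, Cxcl2 and Cxcl10 it was 0.53, 0.67, 0.80 and 0.92. For 6 of the 9 genes the gap between KO 1 and KO 2 exceeded the gap between the group means, as it did for 53.8% of all genes tested. Cxcl1 was the member with the widest gap between WT 1 and WT 2, 2.71, where the median gene had 0.45.

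**Figure D3:**
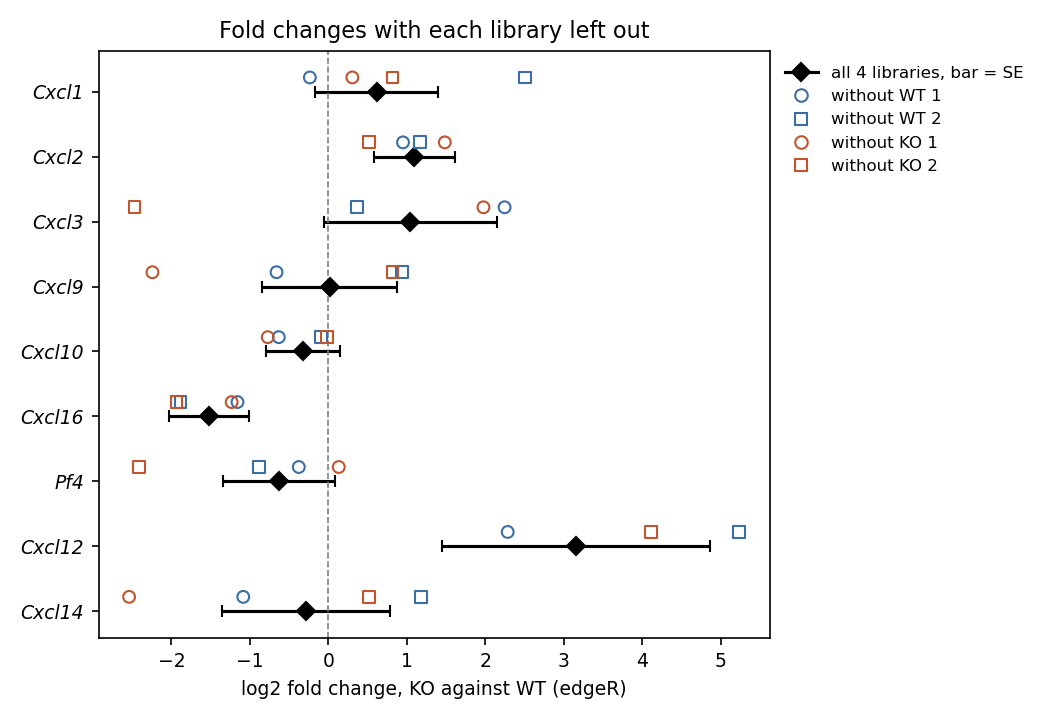
Fitted log2 fold changes of KO against WT (x axis) for the 9 genes, with black diamonds and SE bars for all 4 libraries and open symbols for fits that leave out 1 library. Cxcl16 stays below 0 (-1.93 to -1.16) and Cxcl2 above 0 (0.51 to 1.48) in every fit, while Cxcl3, Cxcl9, Cxcl14, Cxcl1 and Pf4 change sign. Cxcl12 has no value without KO 1.

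Of the 9 genes, 6 lie on chromosome 5. Pf4 and Cxcl3 are 12.7 kb apart, Cxcl1 and Cxcl2 10.8 kb, and Cxcl9 and Cxcl10 18.6 kb. Likeness of profiles was measured as the Euclidean distance between log2(CPM + 0.5) values centered on their mean over the 4 libraries, where 0 means the same profile. Of the 36 pairs, Cxcl9 and Cxcl14, which lie on different chromosomes, were nearest with 0.41, and Cxcl16 and Pf4 followed with 1.37. The neighbors Cxcl9 and Cxcl10 had 1.79, Pf4 and Cxcl3 1.89, and Cxcl1 and Cxcl2 1.93. Of the pairs that share the promoter element, Cxcl1 and Cxcl2 were thus the nearest, Cxcl2 and Cxcl3 had 2.83, and Cxcl1 and Cxcl3, 101.6 kb apart, had 4.59. Among the other genes tested with a mean of at least 50 counts (8205, or 8206 for Cxcl12 and Cxcl14), the pair of genes nearest to each member was named. These were Ccng2 (0.11) and Wdr6 (0.13) for Cxcl2, Thap7 (0.11) and Rbm47 (0.13) for Cxcl16, Pmp22 (0.15) and Ecm1 (0.18) for Pf4, and Atl3 (0.08) and Rab9 (0.08) for Cxcl10. Heatr3 (0.25) and Rcn2 (0.34) were nearest to Cxcl1, Gm28437 (0.56) and Mcemp1 (0.75) to Cxcl9, and Cxcl9 (0.41) and Gm28437 (0.51) to Cxcl14. Mmp8 (0.67) and Mmp12 (0.69), genes for matrix metalloproteinases, were nearest to Cxcl3. Cxcl12 had the most distant neighbors of the 9, Pi16 at 1.38 and Snhg1 at 1.69. With 4 libraries such distances describe these libraries only.

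The other genes of the family were examined as 6 further ligands, 7 receptors and 15 genes for inducing cytokines, their signaling and chemokine processing. None of these 28 genes was past the threshold in edgeR, where 21 could be tested, 14 higher and 7 lower. At an unadjusted p under 0.05 there were 5 higher and 0 lower, where 9.44% and 4.23% of all genes tested were. DESeq2 and the likelihood ratio test each called 5 higher and 0 lower, and over all genes they called 2.96% and 4.02% higher. Among the 21, the groups did not overlap in CPM for 11 genes in the higher and 0 in the lower direction, against 35.9% and 12.6% of all genes. With CPM scaled by TMM factors these became 9 and 2, against 25.3% and 22.6%.

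The other ligands were low. Cxcl11, whose protein binds Cxcr3 where it is made but which GENCODE M21 lists as a polymorphic pseudogene, had 16 and 25 counts under WT and 24 and 7 under KO. Gm2673 on the other strand overlaps 41.7% of its exonic bases. Cxcl13, the B cell attractant that binds Cxcr5, had 1 and 7 counts against 82 and 5, and Cxcl5 had 0 and 0 against 16 and 2, so that both were concentrated in KO 1. Cxcl17 had 3 counts in KO 1 and 0 elsewhere, and Cxcl15 had 0 in all 4 libraries.

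The receptor of Cxcl1, Cxcl2 and Cxcl3 was not detected beyond 1 count: Cxcr2 had 1 count in KO 1 and 0 elsewhere, and Cxcr1 had 0 throughout, which in KO 2 allows up to 0.557 CPM. The receptors of T cells were present instead. Cxcr3 had 4 and 11 counts under WT against 65 and 95 under KO, with a log2 fold change of 2.85 (SE 0.73, edgeR adjusted p = 0.144, range over the alternatives 0.0100 to 0.740). Cxcr6, the receptor of Cxcl16, had 3.24 and 7.04 CPM against 45.8 and 31.4, with a log2 fold change of 2.58 (SE 0.57, edgeR adjusted p = 0.0932, range over the alternatives 0.00144 to 0.599). Both receptors passed the threshold in DESeq2 and in the likelihood ratio test, and Cxcr6 also without KO 2 (edgeR adjusted p = 0.0168, spread from the WT pair). For both receptors the libraries labeled KO lay above those labeled WT, as did the T cell list, whose part in this was not tested. Per 100 counts on the T cell list, Cxcr6 had 4.28 and 5.81 counts against 1.82 and 2.38, and Cxcr3 1.32 and 2.13 against 0.576 and 1.34, so that Cxcr6 was lower on that scale and Cxcr3 overlapped.

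The receptors of Cxcl12 differed from each other. Cxcr4 had 55.5 and 30.0 CPM against 49.8 and 12.4, with overlapping groups and a log2 fold change of -0.87 (SE 0.65, edgeR adjusted p = 0.578) that was -2.08 without KO 1. Ackr3, an atypical receptor that binds Cxcl12 and Cxcl11 and removes them, had 0 counts in both libraries labeled WT against 64 and 32. Its mean under KO was at least 13.9-fold higher than under WT, taking the floor of 3 counts in each WT library, with an edgeR adjusted p = 0.0624 and a range from 2.41e-05 to 0.143 over the alternatives. Cxcr5 had 4 and 2 counts against 28 and 0.

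**Figure D4:**
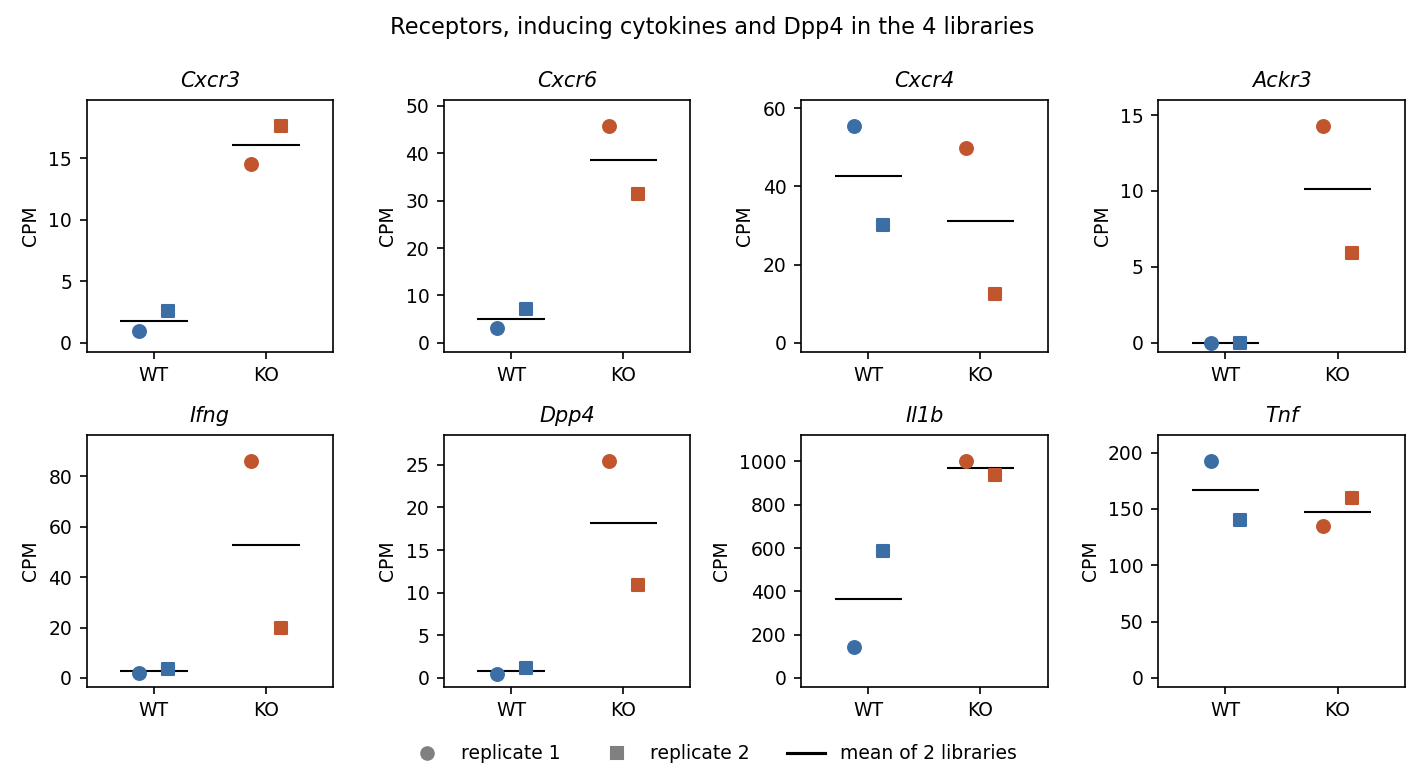
CPM (y axis, linear, own scale for each gene) of 4 receptors, 3 inducing cytokines and Dpp4 in the libraries labeled WT and KO (x axis), with circles for replicate 1, squares for replicate 2 and lines for the mean of 2 libraries. Cxcr3, Cxcr6, Ackr3, Ifng, Dpp4 and Il1b lie higher in both libraries labeled KO, whereas Cxcr4 and Tnf overlap.

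Among inducers, Ifng, the cytokine that induces Cxcl9 and Cxcl10, had 1.99 and 3.52 CPM in the libraries labeled WT against 86.2 and 19.7 in those labeled KO. Its log2 fold change of 3.89 (SE 0.76) missed the threshold (edgeR adjusted p = 0.0617) but passed it under several alternatives, with a range from 1.70e-06 to 0.111. Without KO 1 it was 2.57. In CPM, KO 1 was the highest library for Ifng, Cxcl9 and Cxcl10. KO 2 had more Ifng than either library labeled WT, and the lowest Cxcl9 and Cxcl10. With CPM scaled by TMM factors, WT 2 rather than KO 1 was highest for Cxcl10. Its means on that scale were 218 ± 56.1 under WT and 174 ± 65.1 under KO (SD, n = 2 each). The relation of Ifng to these genes was not tested. Per 100 counts on the T cell list, Ifng had 2.63 and 2.91 counts against 3.42 and 1.49. Dpp4, a protease that trims several CXC chemokines and was chosen after its values were seen, had 2 and 5 counts against 114 and 59 (log2 fold change 4.05, SE 0.82, edgeR adjusted p = 0.0694, range over the alternatives 0.000380 to 0.160). Per 100 counts on the T cell list it had 0.658 and 0.969 against 1.01 and 0.831, with overlap.

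Of the cytokines that act through NF-kB, Il1b had 143 and 584 CPM against 1003 and 939, and Tnf had 193 and 141 against 135 and 159. The log2 fold changes were 1.14 (SE 0.62) and -0.53 (SE 0.45), with edgeR adjusted p-values of 0.453 and 0.634. For Il1b both libraries labeled KO lay above both labeled WT, as for Cxcl2, and its fold change was 0.44 without WT 1 and 2.28 without WT 2. For Tnf the groups overlapped.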

How the data were processed

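RNA from 4 libraries of sorted tumor cells was sequenced after preparation with the NEBNext Ultra II kit. The authors deposited raw read counts per gene symbol, 1 table per library, made with HISAT2 2.1.0, the mouse genome mm10 and HTSeq 0.11.0; the annotation and strand setting are not given in the sources used here. Summary rows that name no gene, 71.2% to 79.5% of all reads, were left out. Of 55367 symbols, 53292 (96.3%) matched GENCODE M21 (GRCm38), which gave positions, exon overlaps and lengths. CPM was taken on summed gene rows.

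Counts were fitted in R 4.3.3 with edgeR 4.0.16: filterByExpr, TMM factors, a term for group alone, and 1 quasi-likelihood fit over the 4 libraries, two-sided, with Benjamini-Hochberg adjustment over all genes tested and a threshold of 0.05. The SE is the log2 fold change divided by the square root of F, and the prior count was 0.125. Alternatives were DESeq2 1.42.0, other scaling factors, filters and tests, a larger prior count, a replicate block, each library left out, and longest transcripts for lengths. The fit was tested on simulated data. With 2 libraries a group, an exact permutation test reaches p = 0.333 at best and was not used. Gaps in log2 CPM used a pseudocount of 0.5. Plots were drawn with matplotlib 3.10.9.

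The members, lists, tests and the rule for naming genes were chosen with earlier results of these data known. By that rule all members, the other ligands and receptors, the inducers past the threshold together with Ifng, Irf1, Tnf and Il1b, Satb1 and the sex genes, and the nearest profiles are named; other genes in the text are list examples or were chosen after their values were seen. A few items under that rule are not reported here.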

Additional observations from a re-analysis of the deposited data

How the results depend on the processing

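Over all genes, the 65 higher and 3 lower calls became 133 higher without scaling factors, 505 and 78 without a filter, 350 and 66 in DESeq2, and 476 and 80 in the likelihood ratio test. They were 99 to 725 higher and 7 to 524 lower when 1 library was left out, where the lone library is assumed to vary like the other pair. Leaving out scaling factors moved the median log2 fold change of all genes from 0.05 to 0.38. Calls among the 9 chemokine genes ran from 0 to 1 higher and from 0 to 2 lower with 1 library left out. These were Cxcl12 without WT 2 or KO 2, and Cxcl16 and Pf4 without KO 2. Without a filter 1, Cxcl12, was called higher. Of the 28 further family genes, 3 were called higher without scaling factors, 5 without a filter, in DESeq2 and in the likelihood ratio test, and 0 to 6 with 1 library left out.

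The replicate numbers share no stated animal or batch. Deviations of WT 1 and KO 1 from their group means correlated at -0.18 over 11837 genes. With 2 libraries a group, the crossed pairing of WT 1 with KO 2 gives the mirror value, 0.18. The sign can also follow differences in cell make-up, so it cannot decide whether the numbers pair the libraries. A replicate block gave 201 higher and 14 lower calls and 4 family genes. The crossed block, chosen after seeing the data, gave 535, 112 and 5. Both moved Cxcl9 from 0.01 to -0.47.

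Log2 fold changes changed sign for Cxcl9 without a filter (-0.05) and, without scaling factors, for Cxcl10 (0.01), Cxcl14 (0.04) and Irf1 (0.08). With 1 library left out, the ranges were -0.24 to 2.50 for Cxcl1, -2.47 to 2.24 for Cxcl3, -2.24 to 0.94 for Cxcl9, -2.54 to 1.18 for Cxcl14, -2.41 to 0.13 for Pf4 and -1.89 to 3.38 for Ppbp. The cause was not tested. The fitted log2 fold changes of Cxcl2, Cxcl16 and, where it gave a value, Cxcl12 kept their direction in every alternative fit. Cxcl12 gave no value without KO 1. Per macrophage count with Lyz2 left out, chosen after seeing the data, the log2 ratio of the mean levels moved from 1.40 to 2.31 for Cxcl2, from 0.01 to 1.28 for Cxcl10, from -1.18 to -0.26 for Cxcl16, from 0.36 to 1.91 for Cxcl9, from 0.06 to 1.63 for Cxcl14, from 0.90 to 2.21 for Cxcl1, from 3.56 to 5.23 for Cxcl12 and from 1.36 to 1.69 for Cxcl3, and changed sign for Pf4 (-0.33 to 0.26). The list without Lyz2 itself summed lower in both libraries labeled KO, which raises every such ratio. At 4017875 to 5382915 gene counts, differences within the first 3 counts of a gene were not detectable.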

Other observations

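Markers of other cell types were measured too. The 8 melanoma genes summed to 226 and 268 CPM in WT 1 and WT 2 and to 2395 and 1315 in KO 1 and KO 2, and 1 of them was past the threshold in edgeR. The 8 dendritic cell genes, of which Ccr7 was past it, summed to between 106 and 171 CPM against 428 and 562. Without Ccr7, which T cells also express, the other 7 summed to 101 and 163 CPM in WT 1 and WT 2 and to 258 and 136 in KO 1 and KO 2, with overlap. The 5 endothelium genes summed to between 20.2 and 29.1 CPM against 8.71 and 16.3, and the 5 B cell genes to between 15.9 and 42.7 against 4.69 and 14.9. Pax5, a B cell transcription factor, had 0 counts in all 4 libraries, beside the 82 counts of the B cell attractant Cxcl13 in KO 1. The relation of these lists to the CXC chemokines was not tested.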
